A study of Homo sapiens with 12 samples.

Results

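The metallothionein genes of LNCaP cells, a human prostate cancer cell line, were followed across serum and taxane treatment on expression arrays. The family was taken as every symbol of the array annotation that is MT1 plus a single capital letter, or MT2A. This gave 9 of the 14812 genes named by the annotation: MT1B, MT1E, MT1F, MT1G, MT1H, MT1L, MT1M, MT1X and MT2A. Each was measured by 1 transcript cluster, the set of array probes assigned to a gene. Of these 9, 5 passed a filter on low signal (MT1E, MT1F, MT1G, MT1X and MT2A) and were among the 11105 genes tested. The family was chosen by a measured value, the small p of MT1G for cabazitaxel against vehicle in charcoal serum and over both sera. Every value of that comparison is therefore given below as a description, with no test.

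Metallothioneins are small, cysteine-rich proteins that bind zinc, copper and cadmium through their thiol groups, buffer free zinc and take part in protection against metals and oxidants. Their genes sit next to each other on the long arm of chromosome 16 and are switched on by metals through the zinc-sensing transcription factor MTF1, which binds metal response elements in their promoters. Glucocorticoids and oxidants are further known inducers. MT2A and several MT1 genes are active in many tissues, MT3 is known mainly from brain and MT4 from stratified epithelium. Zinc handling is a long-studied feature of the prostate gland. The transcripts resemble each other closely, so a probe of one gene can also bind RNA of another, and the values of single MT1 genes are uncertain for that reason.

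All 12 arrays were hybridised with RNA of LNCaP cells carrying the control plasmid MSCV-LMP and exposed for 16 h. The cells stood in charcoal dextran treated serum (below, charcoal serum; such treatment strips steroids and other small lipophilic molecules) or in full serum. Within each serum they received 1 nM cabazitaxel, 1 nM docetaxel or ethanol, the vehicle, labelled CTRL; each of the 6 groups had 2 arrays. Cabazitaxel and docetaxel are taxanes, drugs that stabilise microtubules, and cabazitaxel carries methoxy groups in place of hydroxyl groups on the core that the drugs share. The control plasmid was common to all groups. Nothing in the labels tells replicate cultures from repeat arrays of a culture, and each p-value reflects just the spread among these arrays, which may be technical. Groups of 2 arrays limit the precision of each comparison.

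Levels are given as log2 of the deposited RMA values, and a difference between groups is a difference in mean log2 signal. Signals of different genes come from different probes and were not set against each other. Replicate arrays correlated at r = 0.989 to 0.9937 over all genes named by the annotation. The 7 LNCaP markers named by the annotation were above the signal threshold on 12 of 12 arrays, with KLK3, the gene of prostate-specific antigen, at 8.90 to 10.52 and FOLH1 at 9.58 to 10.47. The summed intensity of these markers was 2290 to 2630 in charcoal serum and 2950 to 3600 in full serum. The sum, which is weighted to the strongest signals, thus moved with the serum comparisons below, and its part in them was not tested. Marker by marker, 4 of the 7 were higher in full serum as the mean of 3 treatments (median log2 difference 0.05). Of the 7, 3 passed limma's test upward after Benjamini-Hochberg adjustment, beside 1.1% of all tested genes. With vehicle, 3 of the 7 were higher (median -0.014) and 2 passed upward, beside 0.396% of all genes in either direction. Of the markers of other cell types, KRT5 (basal epithelium), DCN and LUM (fibroblasts) and CD14 (leukocytes) were above the threshold on 0 arrays. KRT14 (4.41 to 4.68) was above it on 9 arrays, and THY1 (4.48 to 4.82) and CD68 (5.10 to 5.34) on 12 arrays, beside a threshold of 4.48. The annotation named 2 of 3 listed basal markers, 3 of 8 fibroblast markers and 2 of 6 leukocyte markers. RNA from a whole culture does not tell fewer cells with a transcript from less of it per cell.

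The promoters are shown first, because the family is known for the metal response elements that they hold. All 9 members matched a RefSeq gene, and in the order of RefSeq's GRCh38.p14 annotation they run MT2A, MT1L, MT1E, MT1M, MT1B, MT1F, MT1G, MT1H and MT1X, with MT4 and MT3 before MT2A; MT1L is annotated as a pseudogene. MT1A, which lies between MT1M and MT1B, was not analysed here. The RefSeq table held promoters of MT2A, MT1X, MT1H and MT1B. The 250 bases before the transcription start on the forward strand lie at chr16:56608334-56608583 for MT2A, chr16:56682220-56682469 for MT1X, chr16:56669564-56669813 for MT1H and chr16:56651636-56651885 for MT1B. They are printed 5′ to 3′, with capitals for the core of the metal response element, searched as TGCACNC and TGCGCNC on both strands.
MT2A: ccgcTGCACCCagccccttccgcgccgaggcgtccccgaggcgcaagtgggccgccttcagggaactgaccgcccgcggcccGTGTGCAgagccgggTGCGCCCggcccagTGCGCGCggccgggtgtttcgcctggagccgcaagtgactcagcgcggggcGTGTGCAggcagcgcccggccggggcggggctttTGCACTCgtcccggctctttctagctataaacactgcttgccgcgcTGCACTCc
MT1X: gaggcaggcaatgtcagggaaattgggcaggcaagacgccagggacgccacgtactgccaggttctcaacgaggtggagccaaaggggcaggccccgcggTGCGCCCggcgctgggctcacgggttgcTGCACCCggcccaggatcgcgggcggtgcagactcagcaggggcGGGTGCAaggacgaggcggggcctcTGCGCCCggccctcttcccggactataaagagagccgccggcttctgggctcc
MT1H: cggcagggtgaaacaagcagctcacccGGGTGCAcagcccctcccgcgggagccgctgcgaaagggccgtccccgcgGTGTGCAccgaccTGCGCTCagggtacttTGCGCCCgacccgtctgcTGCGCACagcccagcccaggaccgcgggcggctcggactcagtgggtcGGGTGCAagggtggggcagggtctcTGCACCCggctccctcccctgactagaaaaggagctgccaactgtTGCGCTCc
MT1B: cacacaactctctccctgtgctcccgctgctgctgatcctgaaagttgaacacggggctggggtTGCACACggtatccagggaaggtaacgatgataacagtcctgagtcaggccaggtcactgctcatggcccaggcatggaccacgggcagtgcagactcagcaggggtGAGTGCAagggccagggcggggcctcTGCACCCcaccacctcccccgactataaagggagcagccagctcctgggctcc

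MT1H held 8 matches to the metal response element core, MT2A 7, MT1X 4 and MT1B 3. Among 35116 RefSeq promoter windows of the same length, 24.8% held at least 1 match. At least 8 matches were found in 0.0171% of the windows, at least 7 in 0.0313%, at least 4 in 0.37% and at least 3 in 1.58%. In all 4 promoters a match on the gene's strand lay close to the start, from base -53 to -47 in MT1X, MT1H and MT1B and from -54 to -48 in MT2A. A match on the opposite strand lay farther up, from -78 to -72 in MT1X and MT1H, -79 to -73 in MT1B and -88 to -82 in MT2A. The letters TATAAA, searched on the gene's strand, began at base -29 in MT2A and at -30 in MT1X and MT1B, were not among these letters in MT1H, and were found in 6.8% of all windows. Aligned pairwise, the 4 windows were 74.8% to 80.8% identical over the aligned bases. A match is a description of letters, not a measured binding site. Of these 4 genes, MT2A and MT1X gave signal over the array threshold described below, and MT1H and MT1B did not.

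**Figure D1:**
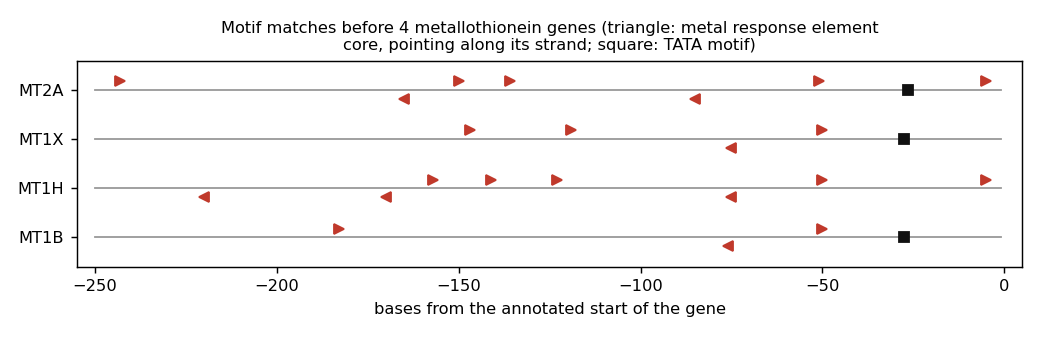
Matches to the metal response element core and to TATAAA in the 250 bases before the start of MT2A, MT1X, MT1H and MT1B, plotted by distance from the start in bases (x axis), 1 line per gene; triangles are core matches pointing along their strand and squares TATAAA. The promoters hold 7, 4, 8 and 3 core matches, and each has a match on the gene's strand that ends at base -47 or -48.

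The 9 genes fell into a set with signal and a set without. MT1X lay at 8.65 to 9.18, MT2A at 8.22 to 8.51, MT1G at 6.92 to 7.68 and MT1F at 6.77 to 7.44, each above the threshold of 4.48, the median of all deposited values, on 12 of 12 arrays. MT1E stayed next to the threshold at 4.37 to 4.61 and exceeded it on 9 arrays. MT1B (4.16 to 4.30), MT1H (4.20 to 4.32), MT1L (4.19 to 4.31) and MT1M (4.24 to 4.37) were under it on every array. Their 48 values ran from 4.16 to 4.37, near the lowest value of all, 4.11, and their differences between groups in serum or drug ran from -0.07 to 0.074. At such signal a difference between groups was not detectable, and these 4 genes entered no test.

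**Figure D2:**
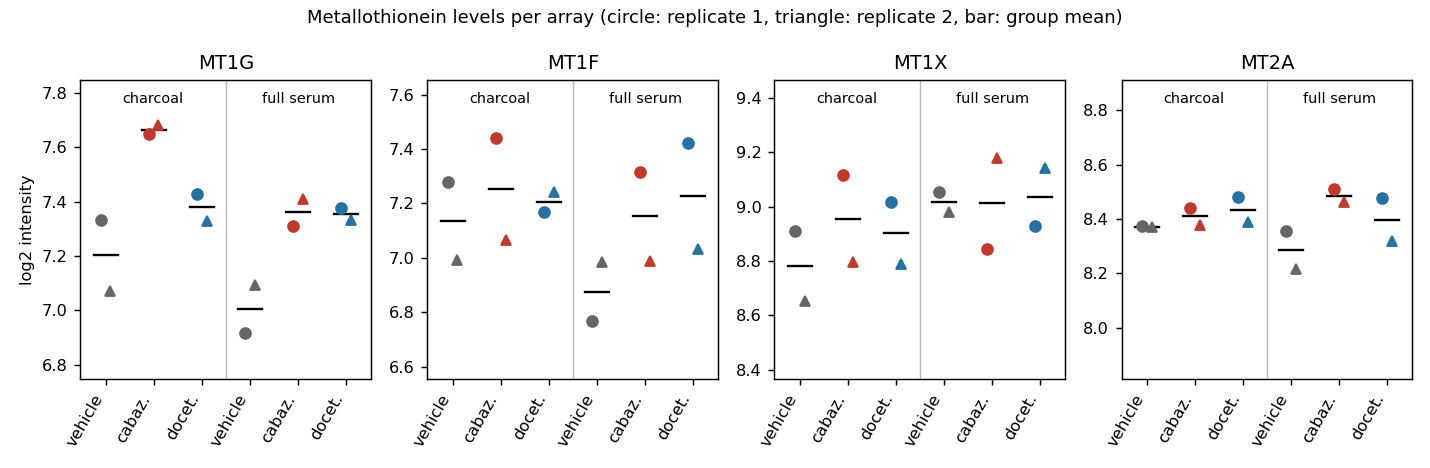
Log2 signal (y axis) of MT1G, MT1F, MT1X and MT2A on each of the 12 arrays, by serum and treatment (x axis); circles are first and triangles second replicates, and bars group means. MT1G in charcoal serum with cabazitaxel stands at 7.65 and 7.68, above the other 10 arrays, and MT2A covers only 8.22 to 8.51.

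**Figure D3:**
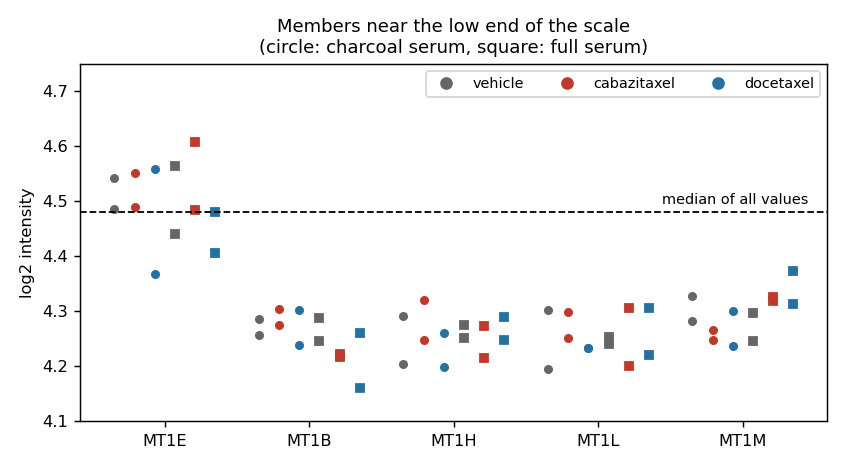
Log2 signal (y axis) of MT1E, MT1B, MT1H, MT1L and MT1M on the 12 arrays, by gene (x axis), circles for charcoal and squares for full serum, coloured by treatment; the dashed line is the median of all deposited values, 4.48. MT1E straddles the line, and the 48 values of the other 4 genes lie under it, between 4.16 and 4.37.

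MT1G, a zinc- and cadmium-binding member of the MT1 group, was highest in charcoal serum with cabazitaxel and lowest with vehicle. In charcoal serum the 2 arrays read 7.33 and 7.07 with vehicle, 7.65 and 7.68 with cabazitaxel, and 7.43 and 7.33 with docetaxel. In full serum they read 6.92 and 7.09 with vehicle, 7.31 and 7.41 with cabazitaxel, and 7.38 and 7.33 with docetaxel. Both cabazitaxel arrays in charcoal serum were thus above the other 10 arrays. The first vehicle array in charcoal serum met the lower docetaxel array there at 7.33 and was above the lower cabazitaxel array in full serum (7.31). The other 3 vehicle arrays were below every array with a taxane. The group means ran from 7.66 ± 0.022 (SD, n = 2) in charcoal serum with cabazitaxel through 7.38 ± 0.069, 7.36 ± 0.072 and 7.35 ± 0.03 in the 3 other taxane groups to 7.20 ± 0.18 and 7.01 ± 0.13 with vehicle in charcoal and full serum. In this order the arrays of the 3 middle groups overlapped, as did those of the 2 vehicle groups. Charcoal serum with vehicle also reached into charcoal serum with docetaxel and full serum with cabazitaxel.

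The choice of the family rests on the next values, which are a description. With cabazitaxel, MT1G was 0.41 above vehicle on the log2 scale as the mean of both sera (95% interval 0.26 to 0.56), a ratio of 1.33. Because MT1G was chosen by this comparison, the choice favours a large difference, and the interval is no test. The difference was 0.46 in charcoal serum and 0.35 in full serum, and the full-serum difference was the smaller by 0.11. It was 0.59 in charcoal serum without the first vehicle array there and 0.33 without the second, which turned that gap between sera to 0.023 in the other direction. Of the other tested members, MT1F was 0.20 above vehicle, MT2A 0.12, MT1X 0.084 and MT1E 0.025 as the mean of both sera. By serum, MT1F was 0.12 above vehicle in charcoal serum and 0.28 in full serum. MT2A was 0.038 and 0.20 above, MT1X was 0.17 above and -0.0052, and MT1E 0.0071 and 0.043 above. The arrays of cabazitaxel and vehicle did not overlap in both sera for MT1G and MT2A, a pattern held upward by 2.68% of all tested genes. Of the 11105 genes, 0% passed limma's test in this comparison after Benjamini-Hochberg adjustment and 520 had an unadjusted p under 0.05. Nothing is read from these shares, since the choice used them.

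Docetaxel, which had no part in choosing the family but was compared with the same vehicle arrays, gave the next comparison. MT1G was 0.26 above vehicle as the mean of both sera (SE 0.0686, 95% interval 0.11 to 0.41, n = 4 against 4), a ratio of 1.2. The difference did not pass limma's test over all genes (unadjusted p = 0.00276, Benjamini-Hochberg adjusted p = 0.757). A larger difference was found for 0.558% of the tested genes. The vehicle arrays in this difference helped to choose MT1G, so its p and this rank are no independent sign. No member was called in this comparison, where 0% of the 11105 genes passed and 672 had an unadjusted p under 0.05. By serum the MT1G difference was 0.18 in charcoal serum (-0.037 to 0.39, limma adjusted p = 0.962), where the groups overlapped, and 0.35 in full serum (0.14 to 0.56, adjusted p = 0.88), where they did not. The docetaxel effect was larger by 0.17 in full serum, an interval of -0.13 to 0.47 that includes 0 (limma adjusted p = 0.999). Without the first vehicle array in charcoal serum the MT1G difference there was 0.31, and without the second 0.046; the gap between sera was then 0.043 and 0.30.

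The other members gave smaller or less certain docetaxel differences. MT1F was 0.21 above vehicle as the mean of both sera (-0.05 to 0.47, limma adjusted p = 0.812), and 1.49% of genes had a larger difference. MT2A was at 0.087 (-0.039 to 0.21, limma adjusted p = 0.852), MT1X at 0.069 (-0.16 to 0.30, adjusted p = 0.94) and MT1E at -0.054 (-0.19 to 0.08, adjusted p = 0.916). Thus 4 of 5 members lay above vehicle with a median of 0.087, beside 55% of all tested genes and a median of 0.0091. MT1G, chosen with the same vehicle arrays, is among the members counted here. In full serum MT1F differed by 0.35 (-0.017 to 0.72, limma adjusted p = 0.945), which was 0.16 without the first docetaxel array there and 0.55 without the second. MT2A differed by 0.11 (-0.066 to 0.29, limma adjusted p = 0.999). The full-serum arrays of docetaxel were wholly above those of vehicle for MT1F and MT1G, 2 of 5 members, beside 21.6% of all genes. In charcoal serum that held for MT2A alone, beside 16.1% of genes, and no member showed it in both sera, beside 4.47% of genes. MT1F differed by 0.071 in charcoal serum (-0.30 to 0.44, limma adjusted p = 0.987). Its docetaxel effect was larger by 0.28 in full serum (-0.24 to 0.80, limma adjusted p = 0.999), and that of the other 3 members apart from MT1G differed between sera by -0.10 to 0.049.

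**Figure D4:**
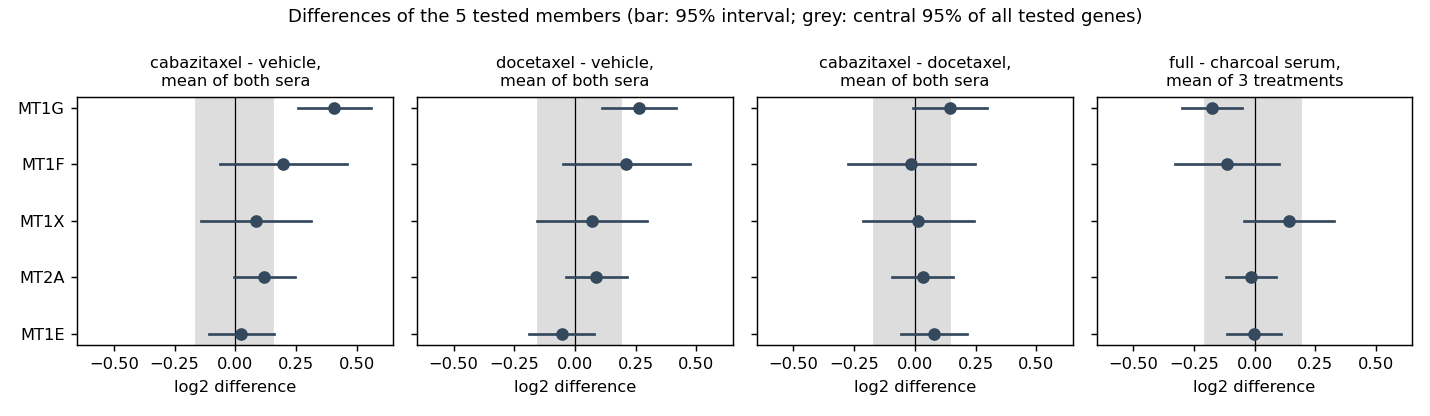
Log2 differences (x axis) of the 5 tested members with 95% intervals from the limma fit (bars), by comparison; grey marks the range that holds the central 95% of all tested genes. For MT1G, the interval for docetaxel against vehicle over both sera (0.11 to 0.41) lies off 0. So does that for full against charcoal serum over the 3 treatments (-0.30 to -0.052). Neither difference passed the adjusted threshold, and both use arrays by which MT1G was chosen. Cabazitaxel against vehicle is a description, and the MT1G interval there is no test, since MT1G was chosen by that comparison.

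The drugs, at the same dose and time, formed 1 pair of related compounds. MT1G was 0.15 higher with cabazitaxel than with docetaxel as the mean of both sera (-0.0055 to 0.30, limma adjusted p = 0.958). In charcoal serum the difference was 0.29 (0.072 to 0.50, unadjusted p = 0.0133, limma adjusted p = 0.886), and both cabazitaxel arrays were above both docetaxel arrays. That comparison uses the cabazitaxel arrays behind the choice of MT1G and is no independent sign of its level. In full serum the difference was 0.0051 (-0.21 to 0.22, limma adjusted p = 1), with overlapping arrays. The members MT1F (-0.013, -0.27 to 0.25), MT1X (0.015, -0.21 to 0.24), MT2A (0.032, -0.094 to 0.16) and MT1E (0.08, -0.055 to 0.21) gave intervals that include 0 as the mean of both sera. In the separate sera these 4 differed by -0.074 to 0.10, and 8 of 8 intervals, which reached from -0.44 to 0.42, included 0. No member was called, and 0% of all genes were called, while 506 genes had an unadjusted p under 0.05. Cabazitaxel was wholly above docetaxel for 1 member in charcoal serum, MT1G, beside 16% of genes, and for 1 in full serum, MT1E, beside 13.2%. The intervals leave room for differences between the drugs of up to 0.30 in MT1G as the mean of both sera.

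Serum gave the comparison with most calls in the whole data set, and the family was not among them. As the mean of 3 treatments, 2.31% of genes differed between full and charcoal serum after adjustment (256 genes, and 1498 at an unadjusted p under 0.05), and 0 of 5 members did. The count was 149 without the second docetaxel array in full serum. MT1G was 0.18 lower in full serum on that mean (log2 difference -0.18, SE 0.056, 95% interval -0.30 to -0.052, n = 6 against 6, unadjusted p = 0.00961, limma adjusted p = 0.163). This was the lowest adjusted p among the 55 tests of a member in 11 comparisons, of which 0 passed. An unadjusted p under 0.05 was found in 5 of the 55, beside 6.37% of the tests of all genes. All 5 were of MT1G and used cabazitaxel or vehicle arrays by which it was chosen, so their number is no independent sign. MT1X stood at 0.14 (-0.044 to 0.33, limma adjusted p = 0.541) and MT1F at -0.11 (-0.33 to 0.10, adjusted p = 0.731). MT2A at -0.015 (-0.12 to 0.087) and MT1E at -0.0025 (-0.11 to 0.11) were close to 0, with limma adjusted p = 0.946 and 0.991. The 5 members had a median of -0.015, beside -0.0014 for all genes.

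By treatment, the MT1G serum difference was -0.20 with vehicle (-0.41 to 0.017, limma adjusted p = 0.641), -0.30 with cabazitaxel (-0.52 to -0.091, adjusted p = 0.431) and -0.024 with docetaxel (-0.24 to 0.19, adjusted p = 0.98). The cabazitaxel value rests on the high charcoal arrays that led to the choice of MT1G, and the mean of 3 treatments contains them too. The arrays of the sera did not overlap for MT1G with cabazitaxel, where 17.6% of genes were wholly lower in full serum; they overlapped with vehicle and with docetaxel. Among all tested genes 0.396% were called with vehicle, 0.396% with cabazitaxel and 0.315% with docetaxel, and 0 members were called in any of these, while 952, 785 and 903 genes had an unadjusted p under 0.05. These counts of called genes, 44, 44 and 35, were lower when single arrays were left out: at the lowest they were 7 without the second vehicle array in charcoal serum, 9 without the second cabazitaxel array in full serum, and 7 without the first docetaxel array in full serum.

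MT1F, a further zinc-binding member of the MT1 group, varied most between replicates. Its arrays in charcoal serum read 7.28 and 6.99 with vehicle, 7.44 and 7.06 with cabazitaxel, and 7.17 and 7.24 with docetaxel. In full serum they read 6.77 and 6.98 with vehicle, 7.32 and 6.99 with cabazitaxel, and 7.42 and 7.03 with docetaxel. Both vehicle arrays in full serum were below every other array, and the other 5 groups overlapped. The SD within groups was 0.212, larger than that of 96.4% of the tested genes and against a median of 0.0948. With vehicle, full serum was wholly below charcoal serum, by a difference of -0.26 (-0.63 to 0.11, limma adjusted p = 0.775), which ran from -0.40 to -0.12 without single arrays. A lower full serum without overlap was seen with vehicle in 2 members, MT1F and MT2A, beside 20.4% of genes.

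MT1X, an MT1 gene at the end of the cluster, had overlapping neighbours throughout its order of groups. In charcoal serum its arrays read 8.91 and 8.65 with vehicle, 9.12 and 8.80 with cabazitaxel, and 9.02 and 8.79 with docetaxel. In full serum they read 9.05 and 8.98, then 8.84 and 9.18, then 8.93 and 9.14 in the same order of treatments. The lowest array was the second vehicle array in charcoal serum, and full serum with vehicle was wholly above charcoal serum with vehicle. That difference was 0.23 (-0.087 to 0.55, limma adjusted p = 0.765), and 1 member was wholly higher there beside 15.1% of genes. The SD within groups was 0.179, larger than that of 92.3% of genes. In each charcoal group the second array was the lower, by 0.23 to 0.32, while with each taxane in full serum it was the higher, by 0.34 and 0.22.

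MT2A, the single MT2 gene of the family and a widely expressed one, held the narrowest range of the 4 measured members. Its arrays in charcoal serum read 8.37 and 8.37 with vehicle, 8.44 and 8.38 with cabazitaxel, and 8.48 and 8.39 with docetaxel. In full serum they read 8.36 and 8.22 with vehicle, 8.51 and 8.46 with cabazitaxel, and 8.48 and 8.32 with docetaxel. Full serum with vehicle had the lowest mean and lay wholly below charcoal serum with vehicle, and both cabazitaxel arrays in full serum were above both in charcoal serum. The serum difference was -0.086 with vehicle (-0.26 to 0.092, limma adjusted p = 0.872) and 0.076 with cabazitaxel (-0.10 to 0.25, adjusted p = 0.972); the wholly higher full-serum arrays with cabazitaxel were shared with 17.3% of genes. The SD within groups was 0.0699, so differences of MT2A were measured more closely than those of MT1F or MT1X.

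**Figure D5:**
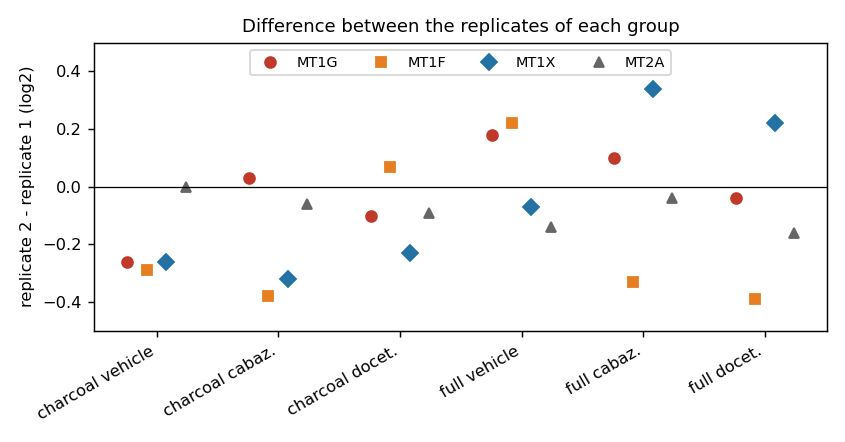
Log2 difference of the second from the first replicate (y axis) of MT1G, MT1F, MT1X and MT2A in each of the 6 groups (x axis). MT1F and MT1X reach from -0.39 to 0.34, while MT2A lies between -0.16 and 0, never above 0.

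Members were compared with each other by their pattern over the 12 arrays, as a description. Pearson's r with MT1G was 0.60 for MT1F, 0.44 for MT2A, 0.13 for MT1X and 0.02 for MT1E, all over the same 12 arrays. They include the cabazitaxel and vehicle arrays by which MT1G was chosen. For the deviations from the group means r with MT1G was 0.30 for MT1F, -0.18 for MT2A, 0.42 for MT1X and -0.03 for MT1E. Within a group the deviations of the 2 arrays are equal and opposite, so 6 groups and not 12 arrays stand behind these values. Over the 6 group means r was 0.87, 0.66, 0.03 and 0.06 in the same order. Outside the family, the 5 genes most like MT1G among 11100 were MIR557, YDJC, MIR587 (each r = 0.86), TSPOAP1 and ZNF830 (each r = 0.85). Most like the mean of the 5 tested members were RWDD2A (r = 0.88), CD300C (0.87), YDJC, FRAT2 and IRX2 (each 0.84). These are the highest of many correlations over 12 arrays in 6 groups.

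Genes that surround the family in biology or on the chromosome were read from lists. MT3 was at 4.56 to 4.98 and MT4 at 4.97 to 5.53, low signals beside the threshold of 4.48. Full minus charcoal serum as the mean of 3 treatments was -0.11 for MT3 (limma adjusted p = 0.489) and 0.088 for MT4 (adjusted p = 0.686), and neither passed in any comparison. Of 20 listed genes of copper and iron handling, 7 were tested and 0 were called in any comparison; with the smallest p values, CCS, the copper chaperone of superoxide dismutase, differed by -0.056 and ATOX1, a copper chaperone, by 0.04 between sera (limma adjusted p = 0.745 and 0.783). MTF1, the metal-sensing activator, was at 0.032 between sera over the 3 treatments and at 0.11 for docetaxel against vehicle over both sera (limma adjusted p = 0.936 and 0.884). The serum value of MTF1 averaged -0.12 with vehicle, 0.35 with cabazitaxel (0.048 to 0.65, limma adjusted p = 0.619) and -0.14 with docetaxel. In charcoal serum MTF1 was at -0.38 for cabazitaxel against docetaxel (-0.68 to -0.08, unadjusted p = 0.0177, limma adjusted p = 0.886). The 24 listed zinc transporter genes were not analysed here.

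Of 20 genes of the NRF2 oxidative stress response, 10 were tested and 0 called; GSR, glutathione reductase, and SRXN1, sulfiredoxin, were each 0.16 higher in full serum (limma adjusted p = 0.119 and 0.222). Of 14 heat shock genes, 8 were tested and 0 called, with HSPB1 at -0.13 and HSPA6 at 0.085 between sera (limma adjusted p = 0.509 and 0.741). The median serum difference was 0.0044 for the NRF2 list and 0.025 for the heat shock list, beside -0.0014 for all genes. With docetaxel against vehicle in full serum 9 of the 10 NRF2 genes lay higher (median 0.068), beside 57.5% of all tested genes (median 0.017). In charcoal serum 4 of 10 did (median -0.0054), beside 50.8% of all genes (median 0.0018). With cabazitaxel the counts were 8 of 10 (median 0.10) in full serum and 5 of 10 (median -0.027) in charcoal serum. Beside them, 53.3% (median 0.0083) and 48.2% (median -0.004) of all genes lay higher. Of the 8 heat shock genes, 5 lay higher with docetaxel in full serum (median 0.08) and 3 in charcoal serum (median -0.067).

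The glucocorticoid-responsive list, included because metallothioneins share that inducer, rose in part. Of 13 listed genes 7 were tested, 6 lay higher in full serum as the mean of 3 treatments, and 3 passed the test upward, with a list median of 0.13; of all tested genes 1.1% passed upward and 1.21% downward. They were FKBP5, a co-chaperone of steroid receptors, at 0.45 (limma adjusted p = 0.00205), ERRFI1, an inhibitor of the EGF receptor, at 0.38 (adjusted p = 0.00341) and ZBTB16, a transcriptional repressor, at 0.25 (adjusted p = 0.014). FKBP5 and ZBTB16 also respond to androgen. The ZBTB16 call was lost without the second cabazitaxel array or the second docetaxel array in full serum (limma adjusted p = 0.0509 and 0.0567). Among the 4 tested neighbours of the cluster on chromosome 16, of 8 listed, NUP93, a nuclear pore subunit, was lower in full serum by -0.21 (limma adjusted p = 0.029). That call was lost in 11 of the 12 fits that left out an array (adjusted p up to 0.102) and held without the first docetaxel array in charcoal serum (adjusted p = 0.0219). No gene of any list was called in a comparison of drug with vehicle or of cabazitaxel with docetaxel.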

How the data were processed

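Total RNA of LNCaP cells was measured on 12 GeneChip Human Gene 2.0 ST arrays. The deposited values are linear intensity, RMA-normalized by the authors per the labels and the submitters' processing notes, which name no RMA version; they ran from 17.3 to 6307.3. The series text mentions a filter on low genes; 44629 transcript clusters were deposited, of which 15835 had 1 named gene. Log2 of the deposited intensity was taken, with no further normalization. For each of 14812 genes the transcript cluster with the highest mean was kept, and 11105 genes above the median of all values (log2 4.48) on at least 2 arrays were tested.

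A single limma fit (version 3.58.1, R 4.3.3) of 6 group means over 12 arrays gave the differences, 95% intervals and p-values, adjusted by Benjamini-Hochberg over all tested genes within a comparison, with a threshold of 0.05. The fit was also run on simulated data with independent arrays, which cannot show how a part shared by replicate number would act. Promoters were read from RefSeq (GRCh38.p14) with Python 3.11.15 and Biopython 1.88, and figures drawn with matplotlib 3.10.9. The members and lists were chosen with earlier results of these data known. Named genes were all members, called genes of each list (up to 4) or otherwise the 2 with the smallest p between sera, MTF1 for its role, and the 5 genes most like MT1G and the family mean. Alternatives changed the offset, normalization, filter, choice of cluster, variance model, arrays in the fit, replicate block and test. The replicate numbers were not taken as pairs in the main fit, since the labels state no pairing. Same-numbered deviations correlated at r = -0.05 to 0.33 between groups, over 0.1 in 10 of 15 group pairs. A part shared by arrays of the same number is therefore not excluded, and the main p-values do not account for it. The fit with the number as a block is given below.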

Additional observations from a re-analysis of the deposited data

Results flagged for a closer look

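The serum differences of MT2A had opposite signs with vehicle and with cabazitaxel, each without overlap of the arrays, and neither passed the test. With vehicle, both full-serum arrays (8.36 and 8.22) were below both charcoal-serum arrays (8.37 and 8.37), a log2 difference of -0.086 (95% interval -0.26 to 0.092), beside 20.4% of genes wholly lower there. With cabazitaxel, both full-serum arrays (8.51 and 8.46) were above both charcoal-serum arrays (8.44 and 8.38), a difference of 0.076 (-0.10 to 0.25), beside 17.3% of genes wholly higher. The gap between these differences, 0.16 (-0.09 to 0.41), was not tested, because it is built from the cabazitaxel and vehicle arrays by which the family was chosen. It ran from 0.091 to 0.23 when single arrays were left out.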

How the results depend on the processing

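No member was called by limma in any of the 11 tested comparisons under any alternative. The MT1G difference for docetaxel as the mean of both sera ran from 0.20 to 0.33 when single arrays were left out, and its serum difference from -0.22 to -0.13 (limma adjusted p = 0.0759 to 0.338). The members' median for cabazitaxel against vehicle in charcoal serum, 0.12, ran from 0.014 to 0.31: it was 0.26 without the first vehicle array and 0.31 without the second cabazitaxel array in charcoal serum. Small differences changed sign when single arrays were left out, and the cause was not tested. For full against charcoal serum as the mean of 3 treatments MT1E ran from -0.034 to 0.029 and MT2A from -0.041 to 0.011. MT1G between sera with docetaxel ran from -0.073 to 0.025, and MT1F for docetaxel in charcoal serum from -0.072 to 0.21. For cabazitaxel against docetaxel as the mean of both sera MT1F ran from -0.11 to 0.085 (0.032 after quantile normalization), MT1X from -0.069 to 0.10 and MT2A from -0.0069 to 0.071. In full serum alone MT1G ran from -0.046 to 0.056. MTF1 ran from -0.041 to 0.10 between sera over the 3 treatments and from -0.00076 to 0.22 for docetaxel over both sera. The docetaxel difference of MT1F over both sera kept its sign, from 0.11 to 0.31.

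With the replicate number as a block, MT1G kept 0.26 for docetaxel (limma adjusted p = 0.522) and -0.18 for serum (adjusted p = 0.143), and the block changed no call of a member. It raised the genes called between sera from 256 to 359 as the mean of 3 treatments, from 44 to 70 with vehicle, from 44 to 47 with cabazitaxel and from 35 to 62 with docetaxel. For each of the 12 arrays, the best match in another group had the same replicate number, a hint from the data and not from the design. These matches depend on each other, so they are not 12 separate observations, and they were not tested.

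Subtracting an assumed offset of 16, 132 genes were called between sera over the 3 treatments, of which 129 were among the 256. With vehicle, cabazitaxel and docetaxel 16, 10 and 9 were called, of which 15, 10 and 8 were among the 44, 44 and 35. It also ended the NUP93 call (limma adjusted p = 0.207). The fit of only the groups compared called 1, 7 and 12, and fitting all named genes 33, 25 and 22. The methods' t-test called 0, 2 and 0 genes between sera after Benjamini-Hochberg adjustment, 0 for each drug in each serum, and no member. Signal near the array floor limits MT1B, MT1E, MT1H, MT1L and MT1M, and groups of 2 arrays limit the rest.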
